A study of Mus musculus with 6 samples.

Results

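The 8 genes described here, Chil3, Retnla, Mgl2, Clec10a, Ltc4s, Alox15, Il4ra and Stat6, belong to the alternative activation programme of myeloid cells. They were found by gene symbol in the deposited feature lists and joined between libraries by Ensembl identifier. All 8 were found among the 30406 genes shared by the 6 libraries. Macrophages enter alternative activation when interleukin-4 or interleukin-13 binds a receptor that holds the IL-4 receptor alpha chain (Il4ra), which leads to phosphorylation of the transcription factor STAT6. In mouse macrophages STAT6 then raises secreted proteins such as the chitinase-like protein Ym1 (Chil3) and the resistin-like molecule RELMα (Retnla), the galactose-binding lectins CD301b (Mgl2) and CD301a (Clec10a), and the lipid enzyme 12/15-lipoxygenase (Alox15). Some of these genes also have tissue or developmental uses outside that response: Chil3 is high in monocytes, neutrophils and lung macrophages, Mgl2 marks a branch of type 2 conventional dendritic cells, and Ltc4s makes leukotriene C4.

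Live CD45+ cells had been sorted from mammary tumours grown from Py8119 cells, a mouse mammary cancer line, in female mice, and were profiled by droplet 3′ RNA sequencing. The groups were intact mice with a knockout (KO) of the metadherin gene Mtdh, irradiated KO hosts given KO marrow, irradiated wild-type (WT) hosts given KO marrow, irradiated KO hosts given WT marrow, irradiated WT hosts given WT marrow, and intact WT mice. Tumour cells were engrafted 8 weeks after the marrow transfer and tumours were taken after 4 weeks. The transplanted groups are written with marrow first and host second, as KO-to-KO, KO-to-WT, WT-to-KO and WT-to-WT. Each group held 1 library, the labels do not say how many mice stand behind it, and neither the ages nor the type of KO allele are stated there. The p-values therefore measure the spread between libraries, which may be technical. All mice carried the same tumour line, the 4 transplanted groups were all irradiated, and the immune cells that an irradiated host had kept cannot be told apart from donor cells by label.

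Of 41267 barcodes, 37988 cells were retained. The libraries held between 85616443 and 142779550 UMIs (unique molecular identifiers, which count captured RNA molecules), with a median of 10549 to 18981 UMIs per cell. Any 2 libraries shared 8 to 25 barcodes, at most 0.348% of the smaller library. Mtdh itself followed the marrow label in macrophages, at 15.5, 12.5 and 18.7 CPM (the UMIs of a gene scaled to the total of the cell class in that library) in intact KO, KO-to-KO and KO-to-WT, and at 109, 112 and 110 CPM in WT-to-KO, WT-to-WT and intact WT.

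Cells were gated on markers that excluded all 8 genes, with thresholds set on the gate genes after their distributions had been seen. Macrophages were cells with at least 32 UMIs of C1qa, C1qb and C1qc per 10000, and numbered 3532 to 5224 per library. In macrophages the check gene Csf1r, the receptor for colony stimulating factor 1, stood at 547 to 768 CPM and Adgre1, the F4/80 antigen gene, at 183 to 343 CPM, while the dendritic cell genes Cd209a and Flt3 summed to at most 1.04 CPM. The macrophage genes Apoe and Ms4a7 were lower where host and marrow were both KO, at 16387 and 444 CPM in intact KO and 22454 and 565 CPM in KO-to-KO, against at least 32896 and 792 CPM in the other 4 libraries, and the part of this shift in the members' results was not tested. Monocytes were gated on Ly6c2 and Plac8 and numbered 208 in intact KO, 373 in KO-to-KO, 49 in KO-to-WT, 41 in WT-to-KO, 84 in WT-to-WT and 43 in intact WT. Type 2 conventional dendritic cells (cDC2, Cd209a and Flt3) numbered 21 to 45 per library, type 1 conventional dendritic cells (cDC1, Xcr1 and Clec9a) 16 to 53, and mature dendritic cells (Ccr7 and Fscn1) 22 to 66. A further class was added after most Chil3 UMIs had been seen outside these gates. It holds cells with Lyz2 but with C1q below the macrophage threshold and no marker of another gate, numbers 233 to 616 cells per library, and is called C1q-low myeloid cells. Because it was defined with Chil3 in view, its levels are given without a test. T cells served as the measure of free RNA for the 6 genes other than Il4ra and Stat6, which T cells express.

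Chil3, on mm10 chromosome 3 at 106147554 to 106167564 on the minus strand with 11 annotated exons, was most abundant in the C1q-low myeloid cells, a class defined with Chil3 in view, and lower in libraries with KO marrow than in libraries with WT marrow. In C1q-low cells it stood at 2762 CPM in intact KO, 1564 CPM in KO-to-KO and 1092 CPM in KO-to-WT, against 8217 CPM in WT-to-KO, 4438 CPM in WT-to-WT and 8170 CPM in intact WT. In macrophages the same libraries held 91.5, 53.5 and 37.8 CPM with KO marrow, against 250, 125 and 144 CPM with WT marrow. The 3 libraries with KO marrow lay below the 3 with WT marrow in both classes. Of the Chil3 UMIs in C1q-low cells, the 10 richest cells carried 67.5% in KO-to-KO and 84.4% in KO-to-WT, against 13.5% to 36.3% in the other libraries. Macrophages averaged 60.9 ± 27.6 CPM with KO marrow and 173 ± 67.1 CPM with WT marrow (SD, n = 3 libraries each).

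In the model with terms for transplantation, host and marrow, the marrow effect on Chil3 in macrophages was a log2 change of -1.76 (SE 0.17), with an adjusted p of 0.551 by edgeR's quasi-likelihood test with Benjamini-Hochberg adjustment, so it did not pass the threshold of 0.05. No gene of 14854 passed for marrow (0%), while 689 had an unadjusted p under 0.05, and DESeq2 called 56, Chil3 among them with an adjusted p of 1.97e-14. Over the 15 other settings tried for this value the log2 change lay between -2.19 and -1.50. Without the WT-to-KO library, which held the highest level, it was -1.57. Chil3 and Ltc4s were the members whose KO marrow libraries all lay below the WT marrow libraries, 2 of 8, where 7.93% of all genes did so; Retnla was the 1 member whose KO marrow libraries all lay above, where 2.49% of all genes did so.

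**Figure D1:**
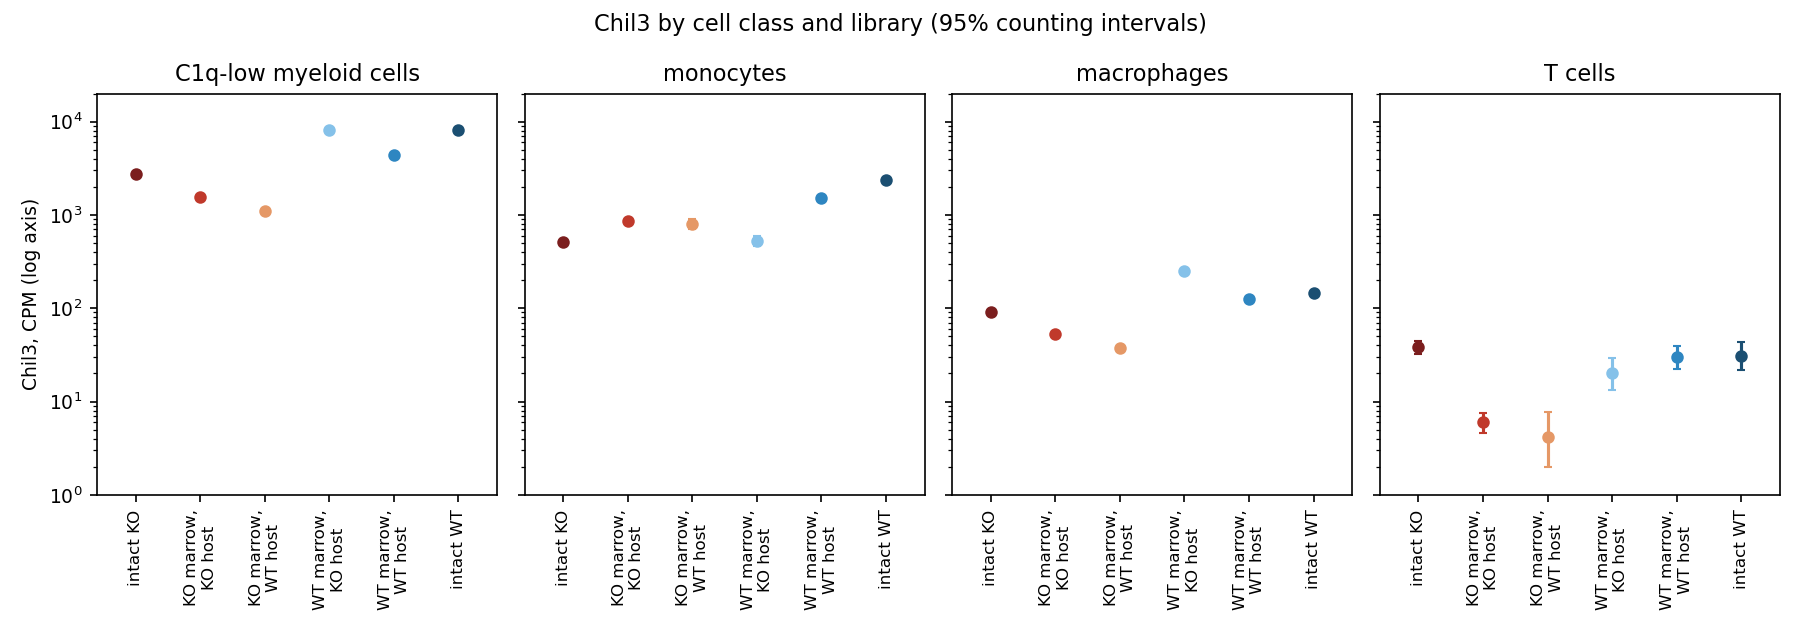
Chil3 in 4 cell classes, in CPM on a log axis, with 1 point per library and exact Poisson 95% intervals that cover counting error only. In C1q-low myeloid cells and in macrophages the 3 KO marrow libraries at the left sit below the 3 WT marrow libraries at the right; in monocytes the WT-to-KO library, at 524 CPM, lies among the KO marrow libraries.

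In macrophages Chil3 was higher in KO hosts than in WT hosts under KO marrow (53.5 against 37.8 CPM) and under WT marrow (250 against 125 CPM). It was lower in intact KO than in intact WT mice (91.5 against 144 CPM), which differ in both host and marrow. The fitted host effect was a log2 change of 0.94 (SE 0.16, adjusted p = 0.984, edgeR quasi-likelihood test). It passed in DESeq2, with an adjusted p of 8.69e-04, while edgeR called no gene (0% of 14854), 667 genes had an unadjusted p under 0.05 and DESeq2 called 139.

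Chil3 was lower in each higher C1q range, except that in KO-to-WT it stood at 1006 CPM in the lowest range and 1119 CPM in the next. In cells with under 8 C1q UMIs per 10000 its level was 4553, 3777 and 1006 CPM in intact KO, KO-to-KO and KO-to-WT, against 12023, 7016 and 12585 CPM in WT-to-KO, WT-to-WT and intact WT. In macrophages with a C1q level in the highest of the 5 ranges the same order of libraries gave 13.8, 14.1 and 12.2 CPM, against 95.5, 39.1 and 39.3 CPM. The KO marrow libraries lay below the WT marrow libraries in each of the 5 C1q ranges. C1q-low cells held 46.2% to 78.2% of all Chil3 UMIs of a library and macrophages 15.7% to 37.5%. The whole libraries held 26473, 10387 and 6016 Chil3 UMIs with KO marrow, against 57893, 49415 and 80814 with WT marrow.

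At the fixed depth given next, Chil3 was found in a minority of macrophages in every library. It was found in a minority of C1q-low cells in every library but intact WT. At a fixed depth of 2000 UMIs per cell, a Chil3 UMI was found in 47.8%, 21.2% and 15.1% of C1q-low cells in intact KO, KO-to-KO and KO-to-WT, against 44.0%, 42.9% and 66.7% in WT-to-KO, WT-to-WT and intact WT, so by share the intact KO library overlapped the WT marrow libraries. In macrophages the shares were 5.6%, 3.54% and 2.09% with KO marrow, against 8.03%, 7.90% and 9.40% with WT marrow. T cells at that depth gave 1.84%, 1.37% and 0.493%, against 4.67%, 4.47% and 8.67%, so the T cell share also ran lower with KO marrow and came close to the macrophage share in intact WT. By level the macrophages stood above the T cells of the same library, which held 38.4, 5.98 and 4.18 CPM with KO marrow, against 20.2, 29.8 and 31.1 CPM with WT marrow. The part of free RNA in the macrophage difference was not tested. Cells with at least 10 Chil3 UMIs, among macrophages and C1q-low cells together, numbered 250, 87 and 64 with KO marrow, against 211, 293 and 406 with WT marrow. Within those cells its level was 3648, 4616 and 4099 CPM with KO marrow, against 9457, 8396 and 8126 CPM with WT marrow. Chil3 itself selected these cells, so their level is no separate support. The cutoff of 10 UMIs was not matched for depth. C1q-low cells held a median of 19929, 12516 and 11270 UMIs with KO marrow, against 19257, 13692 and 18840 with WT marrow. The part of depth in these counts and levels was not tested.

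**Figure D2:**
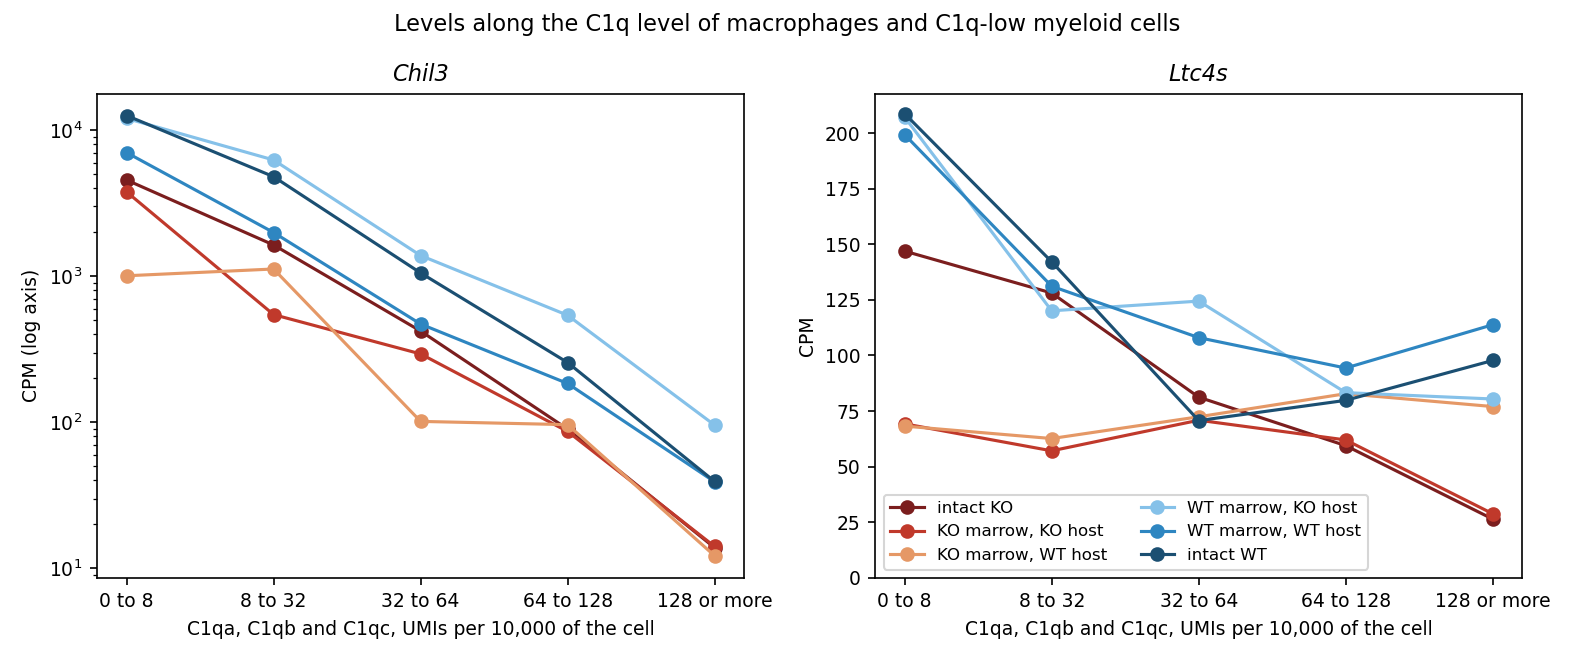
Levels of Chil3 (log axis) and Ltc4s (linear axis) in CPM against the C1q level of the cell, for macrophages and C1q-low myeloid cells together, with 1 line per library. Chil3 is lowest at the highest C1q level in every library, with the KO marrow lines below the WT marrow lines in each range; for Ltc4s, intact KO and KO-to-KO sit below the other 4 in the highest range, at 26.4 and 28.8 CPM.

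The gene patterns most like Chil3 over 36 profiles, made of 6 cell classes in 6 libraries, were those of Gpat3, a triglyceride synthesis enzyme (Pearson r = 0.94 on log2 CPM + 5), Abcd2, a peroxisomal fatty acid transporter (0.93), the collagenase gene Mmp8 (0.93), the formyl peptide receptor gene Fpr2 (0.93) and the coagulation factor gene F10 (0.91), out of 7484 genes compared. The profiles share libraries and gates, so these values describe the pattern only. Among macrophages and C1q-low cells with at least 10 Chil3 UMIs, Ear2, an eosinophil-associated ribonuclease gene, stood at 135 to 371 CPM, against 7.70 to 27.5 CPM in cells without a Chil3 UMI. The lipoprotein lipase gene Lpl stood at 84.0 to 346 CPM, against 17.5 to 34.9 CPM, and the carbonic anhydrase gene Car4 at 48.4 to 290 CPM, against 0.0388 to 2.06 CPM. Chil4, the nearest relative of Chil3, held 0 UMIs in macrophages of 5 libraries and 1 UMI in WT-to-KO. Of the 31-base stretches of the Chil3 transcripts, 30.6% also occur in Chil4. The neutrophil list S100a8, S100a9, Csf3r, Cxcr2 and Retnlg summed to 67.7 to 127 CPM in C1q-low cells with KO marrow, against 90.8 to 115 CPM with WT marrow, so the groups overlapped.

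In monocytes Chil3 did not split by marrow. It stood at 512 CPM in intact KO, 860 CPM in KO-to-KO, 797 CPM in KO-to-WT, 524 CPM in WT-to-KO, 1500 CPM in WT-to-WT and 2388 CPM in intact WT. The marrow effect was a log2 change of -0.44 (SE 0.50, adjusted p = 0.991) and the host effect -1.0 (SE 0.50, adjusted p = 0.957), both by edgeR's quasi-likelihood test. Without the KO-to-KO library the host effect was -1.43 with an adjusted p of 0.0208, so 1 library decided that call. No member was among the few genes that passed in monocytes, 0.0465% of 6455 for host and 0.0310% for marrow; 6 of the 8 members had enough UMIs to be tested there, Retnla and Alox15 being left out.

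Retnla, on mm10 chromosome 16 at 48842551 to 48844461 on the plus strand with 4 exons, was seen in few cells but differed between libraries more than any other member. Macrophages held 8.83 CPM in intact KO, 139 CPM in KO-to-KO and 15.6 CPM in KO-to-WT, against 3.12 CPM in WT-to-KO, 0.193 CPM in WT-to-WT and 0.249 CPM in intact WT. The KO marrow libraries lay above the WT marrow libraries, and in both pairs with the same marrow the KO host was higher. The KO over WT ratio in macrophages was 35.5 in intact mice (exact 95% counting interval 24.2 to 54.3), 44.7 between marrows in KO hosts (39.6 to 50.6) and 80.7 between marrows in WT hosts (46.0 to 157).

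These levels rested on few cells. A Retnla UMI was present in 35 of 3944 macrophages in intact KO, 302 of 4091 in KO-to-KO and 32 of 3532 in KO-to-WT, against 47 of 4124 in WT-to-KO, 3 of 3895 in WT-to-WT and 10 of 5224 in intact WT. The 10 richest cells carried 93.7%, 69.0% and 97.3% of the macrophage UMIs in the KO marrow libraries. A single cell held 891 of 8191 Retnla UMIs in KO-to-KO and 585 of 851 in KO-to-WT, so the level and the ratio of KO-to-WT rest largely on 1 cell. On the WT side of the ratios, a single cell held 18 of 27 UMIs in intact WT and 7 of 12 in WT-to-WT. The counting intervals of the ratios do not cover such clustering of UMIs in single cells. By share of macrophages with a UMI, WT-to-KO stood above KO-to-WT and intact KO. In KO-to-KO, T cells held 6.43 CPM, against 139 CPM in macrophages, and no other library's T cells exceeded 0.418 CPM. At 2000 UMIs per cell the share of macrophages with a UMI was 2.19% in that library, against 0.940% of its T cells.

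The fitted marrow effect on Retnla in macrophages was a log2 change of 4.93 (SE 0.80, adjusted p = 0.812) and the host effect 2.59 (SE 0.75, adjusted p = 0.995), by edgeR's quasi-likelihood test. With the 4 transplanted libraries alone the marrow effect was 5.80 with an adjusted p of 0.0308 by the same test. Without intact KO or without intact WT it passed as well, with adjusted p of 0.0184 and 0.00830. In those settings the transplantation term fits the remaining intact library exactly. All of these passes therefore rest on the same 4 libraries and are not separate support. On those libraries, without intact WT, the host effect was 3.45 with an adjusted p of 0.0442. DESeq2 gave an adjusted p of 0.00272 for marrow.

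Cells with at least 10 Retnla UMIs, among macrophages and C1q-low cells together, numbered 11 in intact KO, 46 in KO-to-KO and 5 in KO-to-WT, against 6 in WT-to-KO, 0 in WT-to-WT and 1 in intact WT. In KO-to-KO these cells, chosen by Retnla, held 967 CPM of the mannose receptor gene Mrc1, against 368 CPM in cells without a Retnla UMI, and 422 CPM of the chemokine receptor gene Ccr2, against 185 CPM. The hyaluronan receptor gene Lyve1 stood at 104 CPM, against 4.17 CPM, and the haemoglobin scavenger receptor gene Cd163 at 58.6 CPM, against 2.30 CPM. Mgl2 stood at 344 CPM, against 134 CPM, Clec10a at 125 CPM, against 17.9 CPM, and Ltc4s at 365 CPM, against 37.2 CPM. Chil3 ran the other way there, at 13.2 CPM, against 132 CPM. In WT-to-KO the 6 Retnla-rich cells held 7265 CPM of Chil3, so Retnla and Chil3 were found together in one library and apart in another. Over the 36 profiles Retnla was most like Brd2 (Pearson r = 0.72), Vamp8 (0.67), Igkc (0.62), Ctsz (0.57) and Gm12840 (0.57). Retnla met the mean of 10 CPM needed for this comparison only through KO-to-KO, which held 312 CPM in C1q-low cells and 139 CPM in macrophages. The correlations therefore mostly describe that 1 library. The related genes Retnlb and Retnlg stood at 0 CPM and at most 2.29 CPM in macrophages.

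The stretches before the RefSeq start sites of Retnla and Chil3 (GRCm38.p6) are shown because they held the only matches, among the members, to the letters TTCNNNNGAA or TTCNNNGAA, the spacings that STAT6 and other STAT proteins bind. Both motifs read the same on either strand, and the matches are in capitals. Promoters of 300 bases, 250 before and 50 after the start, were matched for 6 of the 8 members; Clec10a and Alox15 had no entry. Retnla (chr16:48842359-48842608, plus strand, 250 bases):
Retnla: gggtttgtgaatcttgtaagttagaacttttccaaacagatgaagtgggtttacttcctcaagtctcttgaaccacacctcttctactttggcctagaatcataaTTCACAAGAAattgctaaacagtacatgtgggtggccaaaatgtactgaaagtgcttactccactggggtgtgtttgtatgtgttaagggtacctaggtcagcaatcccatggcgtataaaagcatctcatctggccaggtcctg
Chil3 (chr3:106167565-106167814, minus strand, 250 bases):
Chil3: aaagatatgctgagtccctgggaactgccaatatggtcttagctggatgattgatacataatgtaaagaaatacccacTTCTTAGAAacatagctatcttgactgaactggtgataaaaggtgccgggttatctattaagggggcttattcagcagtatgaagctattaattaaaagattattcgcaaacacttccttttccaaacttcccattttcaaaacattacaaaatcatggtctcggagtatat

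The Retnla match begins at -145 and the Chil3 match at -172 from the RefSeq start. TTCNNNNGAA occurred in 6.95% and TTCNNNGAA in 8.30% of all 32851 promoters of the same length. The windows of Mgl2, Ltc4s, Il4ra and Stat6 hold neither. These matches describe letters and not binding.

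**Figure D3:**
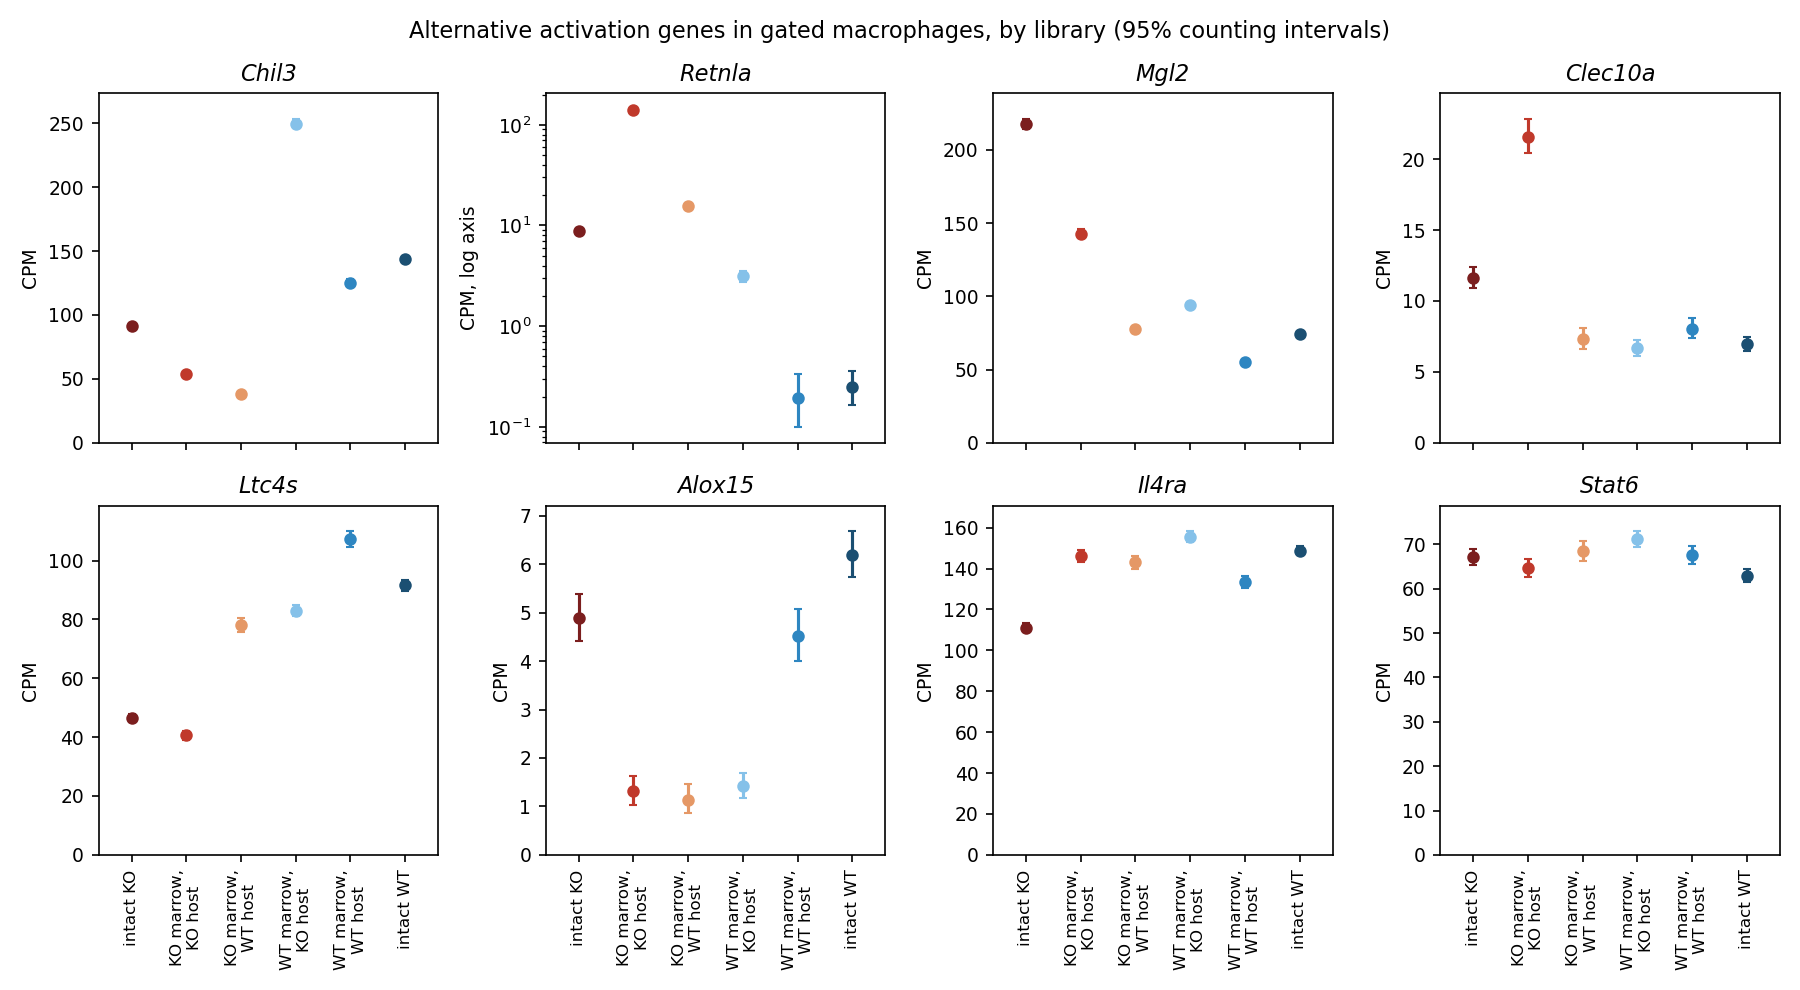
The 8 genes in gated macrophages, in CPM, with 1 point per library and exact Poisson 95% intervals for counting error; the Retnla axis is logarithmic and the others start at 0. Mgl2 and Clec10a are highest, and Ltc4s lowest, in intact KO and KO-to-KO, while Il4ra and Stat6 vary little.

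The lectin genes Mgl2 and Clec10a lie on mm10 chromosome 11, at 70130329 to 70137550 and at 70156197 to 70170834, both on the plus strand, 18646 bases apart with no coding gene between them. Both were higher in macrophages of the libraries in which host and marrow were both KO. Mgl2 stood at 218 CPM in intact KO and 143 CPM in KO-to-KO, against 77.6 CPM in KO-to-WT, 93.9 CPM in WT-to-KO, 55.1 CPM in WT-to-WT and 74.1 CPM in intact WT. Clec10a stood at 11.6 and 21.6 CPM in the libraries with both KO, against 7.33, 6.66, 8.05 and 6.97 CPM in the other 4. For both genes the libraries with both KO lay above the rest without overlap. At 2000 UMIs per cell an Mgl2 UMI was found in 21.8% and 14.1% of macrophages with both KO, against 8.43%, 10.1%, 6.44% and 9.69%, and in at most 1.67% of T cells.

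Mgl2 in macrophages was higher in the KO host in both pairs with the same marrow, at 143 against 77.6 CPM under KO marrow and 93.9 against 55.1 CPM under WT marrow. Over all libraries, which mixes in the marrow of the intact mice, it had mean levels of 151 ± 62.3 CPM in KO hosts and 68.9 ± 12.1 CPM in WT hosts (SD, n = 3 libraries each). The log2 change was 0.91 (SE 0.11, adjusted p = 0.976, edgeR quasi-likelihood test), and DESeq2 gave an adjusted p of 6.25e-07. Mgl2 was the 1 member whose KO host libraries all lay above the WT host libraries, where 3.70% of all genes did so, and no member lay wholly below, where 4.19% did. The marrow effect on Mgl2 was 0.66 (SE 0.11, adjusted p = 0.812; 0.00261 in DESeq2), and KO marrow was higher in both pairs with the same host. For Clec10a the host effect was 0.53 (SE 0.46, adjusted p = 0.995) and the marrow effect 0.71 (SE 0.46, adjusted p = 0.812), and the pairs disagreed in direction for both.

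A model with 1 term for the libraries with both KO was fitted because earlier results of these data showed that these libraries stand apart, and the p-values take no account of this. In it 2513 of 14854 genes passed in macrophages (16.9%; 9.26% higher and 7.66% lower), and 4 of the 8 members did. Clec10a rose by a log2 change of 1.34 (SE 0.18, adjusted p = 0.00811), Mgl2 by 1.28 (SE 0.25, adjusted p = 0.0247) and Retnla by 4.74 (SE 1.19, adjusted p = 0.0492), while Ltc4s fell by 0.97 (SE 0.15, adjusted p = 0.0127), all by edgeR's quasi-likelihood test. Mgl2 and Clec10a were 2 of 8 members with both KO libraries above the other 4, where 9.93% of all genes were, and Ltc4s was 1 of 8 below, where 20% were. Retnla overlapped, since intact KO at 8.83 CPM lay below KO-to-WT at 15.6 CPM, a level for which 1 cell gave 585 of 851 UMIs. The median log2 change of the 8 members was 0.018, against -0.0096 over all genes tested.

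The call for Clec10a held with each library left out, with adjusted p between 0.00219 and 0.0281; without intact KO or KO-to-KO the arm with both KO is 1 library, assumed to vary like the rest. Mgl2 no longer passed without intact KO (adjusted p = 0.145), intact WT (0.147), KO-to-KO (0.0766) or KO-to-WT (0.0612), nor in the transplanted libraries alone (0.133). Ltc4s lost its call without KO-to-KO (0.0718). Retnla lost its call without intact KO (0.294), intact WT (0.290), KO-to-KO (0.430) or WT-to-KO (0.121). When either intact library is left out, the transplantation term fits the other exactly. Those settings and the transplanted libraries alone therefore rest on the same 4 libraries. An interaction of host and marrow was tested directly as well, with 1 residual degree of freedom. No gene of 15797 passed (0%), 833 had an unadjusted p under 0.05, and the 1 member with an unadjusted p under 0.05 was Clec10a, with a log2 interaction of 1.93 (SE 0.45, adjusted p = 0.620).

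**Figure D4:**
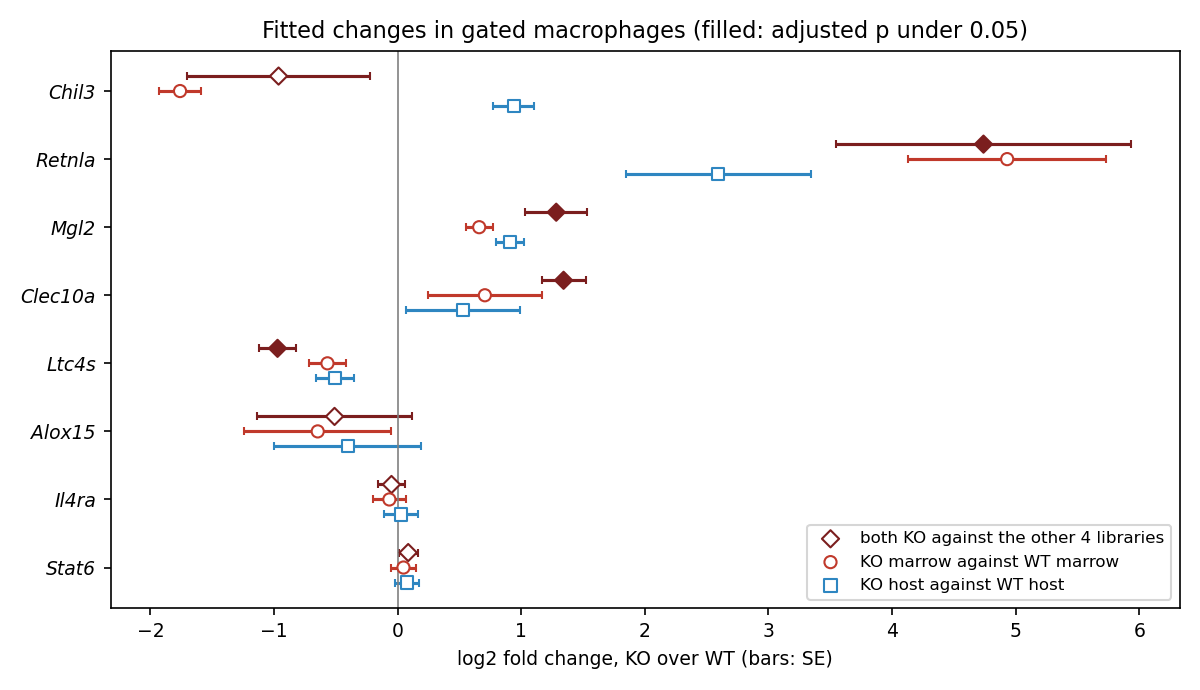
Fitted log2 changes of the 8 genes in macrophages, KO over WT, with SE bars, for the libraries with both KO against the other 4 (diamonds), KO against WT marrow (circles) and KO against WT host (squares). Filled symbols passed an adjusted p of 0.05; these are Retnla, Mgl2, Clec10a and Ltc4s for both KO.

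In cDC2, Mgl2 was lower in KO hosts, where in macrophages it was higher; the difference between the classes was not tested. Mgl2 is a marker of this cell type in mouse, and its level there was 1057 CPM in intact KO, 627 CPM in KO-to-KO and 1340 CPM in WT-to-KO, against 1548 CPM in intact WT, 2252 CPM in KO-to-WT and 1547 CPM in WT-to-WT. All KO hosts lay below all WT hosts, with a log2 change of -0.83 (SE 0.37, adjusted p = 0.914, edgeR quasi-likelihood test). With the stricter gate it was -1.83 (adjusted p = 0.114), and without the filter on low counts -0.81 with an adjusted p of 0.0277. The monocyte gate genes Ly6c2 and Plac8 stood at 189 and 1007 CPM in cDC2 of KO-to-KO and at 42.2 and 491 CPM in intact KO, against at most 29.2 and 113 CPM in the other 4 libraries. Cells of KO-to-KO were also the shallowest, with a median of 9425 UMIs, and 27 of them passed the stricter gate, against 45 in the main gate; the part of these in the Mgl2 level was not tested. Without KO-to-WT the value was 0.031, and without WT-to-KO -1.73 with an adjusted p of 0.0234 and without WT-to-WT -0.96 with an adjusted p of 0.0204, so single libraries of 21 to 45 cells decided its size and its call. Stat6 also lay below in all KO hosts, at 48.9 to 65.7 CPM in KO hosts against 76.1 to 78.5 CPM in WT hosts, and Il4ra above, at 97.3 to 130 CPM in KO hosts against 78.5 to 91.8 CPM in WT hosts. Thus 2 of 5 tested members lay wholly below, where 3.73% of all genes did, and 1 wholly above, where 5.34% did. The orders of Stat6 and Il4ra rest on few UMIs. Stat6 held 26 in intact KO, 21 in KO-to-KO and 35 in intact WT, and Il4ra 68, 47 and 38. Counting error alone could reorder the nearest libraries for these genes. None passed: 0.0369% of 5415 genes passed for host and 0.0185% for marrow. Clec10a in cDC2 stood at 140 CPM in intact KO and 319 CPM in KO-to-KO, against 64.9, 87.5, 233 and 81.7 CPM in KO-to-WT, WT-to-KO, WT-to-WT and intact WT, and the groups overlapped.

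Mgl2 was far higher in cDC2 than in macrophages of the same library, 1395 ± 545 CPM against 110 ± 60.5 CPM (SD, n = 6 libraries), yet macrophages, the far more numerous cells, held 72.6% to 88.7% of its UMIs. Clec10a averaged 154 ± 101 CPM in cDC2, 33.7 ± 12.8 CPM in cDC1, 19.2 ± 12.9 CPM in monocytes and 10.4 ± 5.78 CPM in macrophages. The gate genes of cDC2 in macrophages, 0.679 to 1.04 CPM in sum, were near 0, while the cDC2 check genes Zbtb46, Itgax, Irf4, Kmo and Tnip3 summed to 87.0 to 214 CPM with KO marrow, against 67.8 to 112 CPM with WT marrow. The monocyte gate genes in macrophages summed to 5.11 to 103 CPM with KO marrow, against 3.28 to 8.49 CPM with WT marrow. Leaving out macrophages with a Ly6c2 UMI changed no call of Mgl2, Clec10a, Ltc4s or Retnla for the libraries with both KO. That step removes only cells in which Ly6c2 was captured. Of the 373 gated monocytes in KO-to-KO, 124 had no Ly6c2 UMI, so the part of monocyte-like cells was not tested. The transcripts of Mgl2 share 20.3% of their 31-base stretches with Clec10a, so reads could be split between them. Over the 36 profiles Mgl2 and Clec10a correlated at a Pearson r of 0.74, and Mgl2 was most like Ccnd1, the cyclin D1 gene (0.85), Asgr2, an asialoglycoprotein receptor subunit gene (0.84), and the class II peptide loading gene H2-DMb2 (0.84). Next came Cd209a, a gate gene of cDC2 (0.82), and Trp53i11 (0.82). Clec10a was most like Vrk1 (0.84), Fh1 (0.84), Kmo (0.83), Smdt1 (0.82) and H2-DMb2 (0.81).

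**Figure D5:**
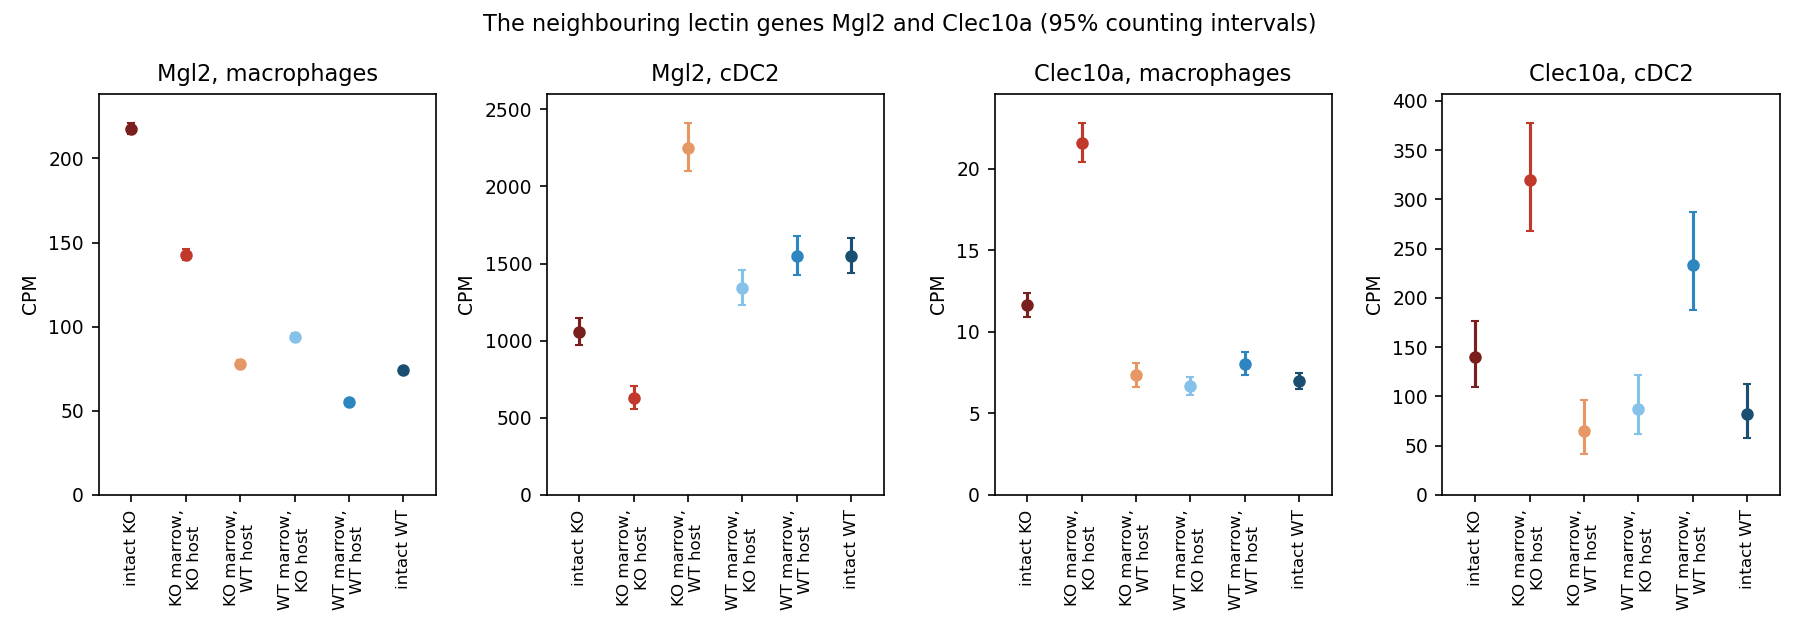
Levels of Mgl2 and Clec10a in macrophages and in cDC2, in CPM from 0, with 1 point per library and exact Poisson 95% intervals for counting error. Mgl2 is highest in intact KO macrophages at 218 CPM but lowest in cDC2 of KO-to-KO at 627 CPM.

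Of the lipid enzyme genes, Ltc4s was lower with both KO and Alox15 was near 0 in most classes. Ltc4s, leukotriene C4 synthase, lies on mm10 chromosome 11 at 50236461 to 50238616 on the minus strand, where the antisense gene Gm26542 overlaps it by 1664 bases. Its macrophage level was 46.5 CPM in intact KO, 40.6 CPM in KO-to-KO and 78.1 CPM in KO-to-WT, against 83.0 CPM in WT-to-KO, 107 CPM in WT-to-WT and 91.6 CPM in intact WT. The KO marrow libraries lay below the WT marrow libraries, and the lowest were those with both KO. The marrow effect was a log2 change of -0.57 (SE 0.15, adjusted p = 0.812) and the host effect -0.50 (SE 0.15, adjusted p = 0.995), both in the same direction in the 2 pairs that differ in that factor alone (edgeR quasi-likelihood test).

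The difference with both KO was widest in macrophages with a C1q level in the highest of the 5 ranges, where Ltc4s stood at 26.4 CPM in intact KO and 28.8 CPM in KO-to-KO, against 77.0 CPM in KO-to-WT, 80.4 CPM in WT-to-KO, 114 CPM in WT-to-WT and 97.7 CPM in intact WT. Between 32 and 64 it stood at 81.2 and 70.9 CPM with both KO, against 72.4, 124, 108 and 70.7 CPM, and the groups overlapped. In C1q-low cells it followed the marrow, at 135, 60.9 and 64 CPM with KO marrow, against 150, 164 and 171 CPM with WT marrow. Over the 36 profiles Ltc4s was most like Akap5 (Pearson r = 0.80), Lpin1 (0.75), Rab14 (0.70), Myo7a (0.69) and Alox5 (0.68), the gene of 5-lipoxygenase, which makes the substrate for leukotriene C4 synthase.

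Alox15 was scarce. Its macrophage level was 4.88 CPM in intact KO, 1.31 CPM in KO-to-KO, 1.14 CPM in KO-to-WT, 1.42 CPM in WT-to-KO, 4.52 CPM in WT-to-WT and 6.19 CPM in intact WT. Both intact libraries were high and 3 of the 4 transplanted ones low, and the fitted effects were -0.65 for marrow (SE 0.60, adjusted p = 0.831) and -0.40 for host (SE 0.59, adjusted p = 0.995) by edgeR's quasi-likelihood test. C1q-low cells held 5.88, 1.96 and 10.4 CPM with KO marrow, against 0, 2.26 and 15.5 CPM with WT marrow, and cDC1 had no Alox15 UMI in any library. Few cells carried the gene. The 10 richest macrophages held 37.1% to 83.1% of the macrophage Alox15 UMIs of a library. In C1q-low cells a single cell held 24 of 34 UMIs in KO-to-WT and 11 of 19 in WT-to-WT.

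The receptor and the transcription factor varied little in macrophages. Il4ra, on chromosome 7 at 125552120 to 125579474 on the plus strand, stood at 111, 146 and 143 CPM with KO marrow, against 156, 133 and 149 CPM with WT marrow. Stat6, on chromosome 10 at 127642986 to 127660957 on the plus strand, stood at 67.2, 64.7 and 68.5 CPM, against 71.1, 67.7 and 62.9 CPM. For both genes the groups overlapped. The marrow effects were log2 changes of -0.067 (SE 0.14, adjusted p = 0.929) for Il4ra and 0.048 (SE 0.10, adjusted p = 0.929) for Stat6, and the host effects 0.028 (SE 0.14, adjusted p = 1) and 0.076 (SE 0.10, adjusted p = 0.995), all by edgeR's quasi-likelihood test. Their signs turned under some other settings. Il4ra averaged 140 ± 15.8 CPM in macrophages, 107 ± 38.8 CPM in mature dendritic cells, 98.6 ± 19.0 CPM in cDC2, 90.6 ± 26.9 CPM in monocytes, 69.2 ± 2.81 CPM in C1q-low cells, 53.2 ± 8.03 CPM in T cells and 43.4 ± 24.8 CPM in cDC1 (SD, n = 6 libraries). The ranges of neighbours in that order overlapped, while macrophages lay above C1q-low cells in every library. Stat6 averaged between 39.7 ± 8.02 CPM in cDC1 and 67.0 ± 2.89 CPM in macrophages. Il4ra was most like Cyfip1 (Pearson r = 0.84) and Stat6 most like Tnfaip3 (0.82), and the pair correlated at 0.59 over the 36 profiles.

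Lists of other genes tied to the pathway were followed in macrophages. The lists are named for IL-4, but whether IL-4 itself changed these genes was not tested. For the libraries with both KO, 4 of 9 tested genes of IL-4 receptor signalling rose and none fell, where 9.26% of all genes rose and 7.66% fell, with a list median of 0.31 against -0.0096 over all genes. Socs1, a feedback inhibitor of JAK kinases, stood at 28.9 and 49.8 CPM with both KO, against 6.85, 6.94, 8.95 and 2.05 CPM in the other 4 libraries (log2 change 3.25, SE 0.26, adjusted p = 0.00292). Il2rg, the common gamma chain, stood at 99.1 and 148 CPM, against 52.4, 56.4, 37.4 and 32.2 CPM (1.71, SE 0.16, adjusted p = 0.00424). Cish, another feedback inhibitor, rose by 1.55 and the insulin receptor substrate gene Irs2 by 0.57. Il13ra1, Jak1, Jak3, Tyk2 and Ptpn6 did not pass, and Il4 and Il13 were too scarce to test.

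Of 16 tested further IL-4 induced genes, 5 rose and 1 fell with both KO, beside the same 9.26% and 7.66% of all genes, with a list median of 0.84. The PD-1 ligand gene Pdcd1lg2 stood at 27.8 and 28.1 CPM, against 2.27, 2.67, 1.55 and 1.60 CPM (log2 change 3.96, SE 0.22, adjusted p = 0.00118). The transglutaminase gene Tgm2 rose by 1.38, the transcription factor gene Egr2 by 1.36 and the E-cadherin gene Cdh1 by 1.18. Flt1, a VEGF receptor gene that was named after its value was seen, rose by 3.14. Mrc1, likewise named afterwards, fell by 0.92 and stood at 391 and 395 CPM with both KO, against 672, 674, 733 and 1001 CPM. Arg1, the arginase gene, did not pass (0.66, adjusted p = 0.180), nor did the chemokine genes Ccl17, Ccl22 and Ccl24.

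Of 11 lipid mediator genes, 1 rose and 2 fell with both KO, again beside 9.26% and 7.66% of all genes, with a list median of 0.034. Hpgds, a prostaglandin D synthase gene, stood at 65.7 and 52.4 CPM, against 102, 127, 112 and 180 CPM (log2 change -1.15, SE 0.12, adjusted p = 0.00426). Alox5 stood at 26.0 and 25.5 CPM, against 53.1, 46.5, 55.4 and 52.6 CPM (-0.92, SE 0.10, adjusted p = 0.00469). Mgst2, a microsomal glutathione transferase gene that can also make leukotriene C4, was named after its value was seen, rose by 1.28 and reached at most 1.80 CPM. With host or marrow as the term, none of the genes in these 3 lists passed in macrophages, and the median shift of the IL-4 induced genes was 0.46 with host and 0.43 with marrow, against -0.0010 and -0.0052 over all genes.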

How the data were processed

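Live CD45+ cells of tumours of 6 groups were profiled by droplet 3′ RNA sequencing, with 1 library per group. The deposited counts are raw UMI counts per gene and barcode, made by the authors with Cell Ranger 7.0.1 for the intact libraries and 6.1.1 for the transplanted ones, per the file headers, on mm10, per the submitters' processing notes; neither says whether intronic reads entered the counts. Their gene lists differ too, with 32285 genes in each intact library and 31053 in each transplanted one, and only the 30406 shared genes were used. The intact and transplanted libraries therefore differ in software and gene list as well as in irradiation. A term for transplantation stood in every host and marrow model. There were 0 other columns of per-sample values.

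Barcodes needed 500 UMIs, 200 genes and no more than 15% mitochondrial UMIs. Automatic Scrublet thresholds marked almost no cells, so the top 6% of doublet scores were removed from each library. Counts were summed per library and gated class and tested with edgeR 4.0.16 (quasi-likelihood, robust, TMM, filterByExpr; R 4.3.3), with Benjamini-Hochberg adjustment over all genes tested and a threshold of 0.05; the fits were tested on simulated data. Standard errors were taken from the fold change and the F statistic. Levels carry exact Poisson and shares exact binomial 95% intervals, which cover counting error only, and shares were compared with cells thinned to 2000 UMIs. DESeq2 1.42.0, other scaling, filters, gates and sets of libraries were alternatives. cDC1, mature dendritic cells and C1q-low cells were given as levels only.

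The members, lists, gates and the model for both KO were chosen with earlier results of these data known. The naming rule took all 8 members, up to 4 genes of each list that averaged 10 CPM or more, preferring those past the threshold, and the 5 genes most like each member. Other list genes are named in addition. Ear2, Lpl, Car4, Ccr2, Lyve1 and Cd163, given for cells rich in Chil3 or Retnla, stand outside this rule. They come from a panel of genes chosen by hand, of which only a part is shown. Promoter sequences are from RefSeq.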

Additional observations from a re-analysis of the deposited data

How the results depend on the processing

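No paired analysis was possible because each group held 1 library and the labels give no replicate numbers. Every host and marrow count rests on 6 libraries, or on fewer where libraries are said to be left out. With DESeq2 the count of genes changed with host was 139 in macrophages and 5 in monocytes, and with marrow 56 in macrophages and 4 in monocytes, against 0, 3, 0 and 2 in edgeR. Without the filter on low counts, host gave 71 genes in monocytes and 32 in cDC2 (2 with the filter), and marrow gave 3 in macrophages, 60 in monocytes and 37 in cDC2 (1 with the filter). Without doublet removal, host gave 5 and marrow 4 genes in monocytes. With stricter gates, host gave 0 genes in monocytes and 1 in cDC2, and marrow 0 in both. In the 4 transplanted libraries alone, host gave 1 gene in macrophages, 6 in monocytes and 4 in cDC2, marrow gave 2, 0 and 4, and both KO gave 1625 (910 higher and 715 lower) against 2513. With the other genotype term dropped, host gave 0 genes in cDC2, and marrow gave 1 in macrophages, 1 in monocytes and 0 in cDC2. Leaving out each library in turn, host gave 0 to 36 genes in macrophages, 2 to 20 in monocytes and 0 to 66 in cDC2, marrow gave 0 to 21, 0 to 14 and 0 to 79, and both KO gave 1150 to 2645. The causes were not tested.

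The members' log2 changes under other settings were counted in macrophages, with Chil3 in monocytes and Mgl2 in cDC2 added. Of these, 347 kept direction and side of the threshold, 14 passed newly, 15 no longer passed and 28 reversed. The other members tested in monocytes and cDC2 are not in this count. With plain CPM, Il4ra for host became -0.014, Stat6 for marrow -0.019 and Stat6 for both KO -0.018. In the transplanted libraries alone Il4ra became 0.056 for marrow and 0.093 for both KO, and Stat6 -0.0097 and -0.023. With the stricter gate Mgl2 in cDC2 became 0.80 for marrow. Leaving out each library, the host values spanned -0.46 to 1.48 for Clec10a, -1.36 to 0.73 for Alox15, -0.065 to 0.16 for Il4ra and -1.73 to 0.031 for Mgl2 in cDC2. The marrow values spanned -0.30 to 1.64 for Clec10a, -1.66 to 0.44 for Alox15, -0.16 to 0.064 for Il4ra, -0.0040 to 0.082 for Stat6, -1.33 to 0.35 for Chil3 in monocytes and -1.0 to 0.77 for Mgl2 in cDC2. For both KO they spanned -0.30 to 0.11 for Il4ra and -0.0093 to 0.22 for Stat6. For both KO, Mgl2 also lost its call without the filter on low counts (adjusted p = 0.0671), and Retnla without that filter (0.212), with the stricter gate (0.0635), in the transplanted libraries (0.244) and with C1q-low cells added (0.0514), a setting chosen after seeing the data. Chil3 for marrow passed without that filter (0.0471, edgeR).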

Other observations

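The cytokines that start alternative activation were nearly absent from the libraries. Il4 held 9, 2 and 1 UMIs in intact KO, KO-to-KO and KO-to-WT, against 3, 1 and 8 UMIs in WT-to-KO, WT-to-WT and intact WT. Il13 held 17, 6 and 0 UMIs with KO marrow, against 21, 1 and 1 UMIs with WT marrow.

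Chil3 was also found in cells that carried neutrophil markers, at 1539 CPM in intact KO (51 cells), 58.7 CPM in KO-to-KO (471 cells) and 34.2 CPM in KO-to-WT (244 cells), against 57.4 CPM in WT-to-KO (168 cells), 518 CPM in WT-to-WT (406 cells) and 112 CPM in intact WT (79 cells). The order of the libraries there was not that of macrophages or C1q-low cells. In cDC1, intact KO held 354 CPM of Chil3 from 39 cells, against 1.21 to 27.5 CPM in the other 5 libraries.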
